A study of Mus musculus with 3 samples.

Results

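The clustered Hox genes of the mouse were examined in lungs of mice that carried a tumour elsewhere in the body and in lungs of normal mice. Members were all genes whose only symbol in the platform annotation is Hoxa, Hoxb, Hoxc or Hoxd followed by a number, which gave 31 of the 8251 genes named on the array. The study had 3 Affymetrix expression arrays, 1 per group. They held RNA from a B16-bearing lung (B16 is a melanoma line of the mouse), an LLC-bearing lung (LLC, the Lewis lung carcinoma line, arose in mouse lung) and a normal lung used as the control. Tumour cells had been placed under the skin of the back, and the submitters describe these as lungs that have not yet received tumour cells. Strain, age, sex, time after injection and the number of animals behind each RNA are not stated in the labels. With 1 array per group there was no test, p-value or error, so the values describe single arrays and cannot be carried over to the conditions.

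Hox genes encode transcription factors that bind DNA through a homeodomain and give cells their position along the head-to-tail axis of the embryo. They lie in a row in each of 4 clusters, Hoxa to Hoxd, and genes with the same number in different clusters are paralogs, copies of 1 ancestral gene. Genes with low paralog numbers are used from the hindbrain backwards, and those with high numbers in the tail, the limbs and the urogenital tract. In the developing mouse lung Hox genes are known mainly from the mesenchyme, and Hoxa5 is required for normal formation of the trachea and lung. In whole lung RNA, fewer cells that express a gene and less RNA per cell cannot be told apart.

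Each gene stands here with 1 probe set, the set of array probes with the highest mean signal over the 3 arrays. Signals are background-subtracted intensity values and can be negative. A floor was set at the 40th percentile of all values, a signal of 23.6, and signals below it were given no order. The floor is not a detection call. Of all values, 8.01% lay below −23.6, 4.06% below −50 and 1.46% below −100, so a positive signal of up to 50 or 100 is within the size that some negative signals reach. Signals of different probe sets depend on the probes as well as on the RNA, and the levels of different genes are therefore not ranked here.

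Of the 31 Hox genes, 14 were above the floor on all 3 arrays, 3 on 2 arrays and 14 on none. Among all 8251 genes, 62.3% were above the floor on all 3 arrays and 25.5% on none. Of the 39 Hox genes listed by RefSeq, 8 were not analysed here. With a stricter floor at a signal of 100, 7 of the 31 genes were above it on all 3 arrays. These were Hoxa4, Hoxa5, Hoxa6, Hoxb6, Hoxb7, Hoxb8 and Hoxc8, and 3 of them (Hoxa4, Hoxa6 and Hoxb8) rest on a probe set with relaxed probe rules, described below.

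**Figure D1:**
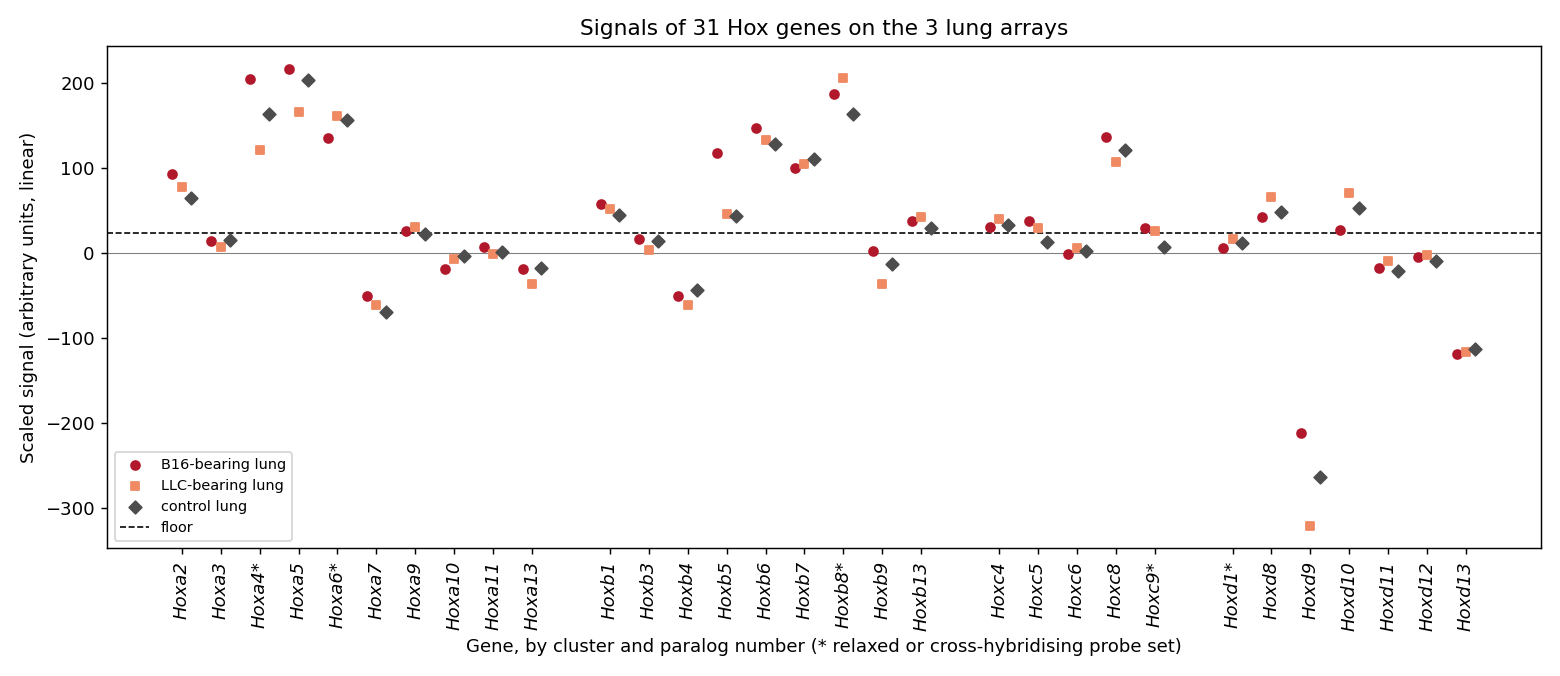
Scaled signal (linear, arbitrary units) of the brightest probe set of each of 31 Hox genes on the B16-bearing (circles), LLC-bearing (squares) and control (diamonds) array, ordered by cluster and paralog number, with the floor of 23.6 dashed. The 3 points of most genes lie close together, also where all are negative, as for Hoxd13 at −119, −117 and −113.

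By paralog number, genes from the middle of the clusters were above the floor more often than those from the ends with high numbers. Of the 8 members with paralog numbers 6 to 8, 6 were above it on all 3 arrays, and of the 6 members with numbers 4 to 5, 4 were. Of the 12 members with numbers 9 to 13, 2 were above it on all 3 arrays, Hoxb13 and Hoxd10, and 8 on none. Numbers 1 to 3 had 5 members, of which 2, Hoxb1 and Hoxa2, were above it on all 3. Without the 5 members that rest on relaxed or cross-hybridising probe sets, the counts for numbers 6 to 8, 4 to 5, 9 to 13 and 1 to 3 were 4 of 6, 3 of 5, 2 of 11 and 2 of 4. Among the members left out, Hoxa4 and Hoxd1 each have another probe set of the ordinary kind, below the floor on all 3 arrays. Of all 8251 genes 62.3% were above the floor on all 3 arrays. The counts for numbers 4 to 5 and 6 to 8 are near that share, and that for 9 to 13 is below it. These classes are small, and no test of their difference was made.

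By cluster, 4 of 10 Hoxa genes, 6 of 9 Hoxb genes, 2 of 5 Hoxc genes and 2 of 7 Hoxd genes were above the floor on all 3 arrays. The share over all 8251 genes was 62.3%. Without the 5 members on relaxed or cross-hybridising probe sets, the counts for Hoxa, Hoxb, Hoxc and Hoxd were 2 of 8, 5 of 8, 2 of 4 and 2 of 6. The clusters also differ in the paralog numbers analysed. Numbers 9 to 13 make up 4 of 10 Hoxa, 2 of 9 Hoxb, 1 of 5 Hoxc and 5 of 7 Hoxd members. The counts by cluster are therefore not separate from those by paralog number. In the Hoxa cluster the genes above the floor were Hoxa2, Hoxa4, Hoxa5 and Hoxa6. Hoxa7, from the middle of the cluster, was negative on all 3 arrays. It read −50.7 in B16-bearing, −60.7 in LLC-bearing and −69.5 in control lung. Every Hoxa member with a number above 9 was also below the floor on all 3 arrays. In the Hoxb cluster the run from Hoxb5 to Hoxb8 was above it, with Hoxb3, Hoxb4 and Hoxb9 below it and Hoxb1 and Hoxb13 above it. Paralogs of 1 number did not always share a side of the floor. Of the 2 members numbered 7, Hoxb7 was above the floor on all 3 arrays and Hoxa7 below the floor on all 3. All 3 members numbered 8 (Hoxb8, Hoxc8 and Hoxd8) were above it on all 3 arrays, while of the members numbered 6 Hoxc6 was below it on all 3 and Hoxa6 and Hoxb6 were above it.

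**Figure D2:**
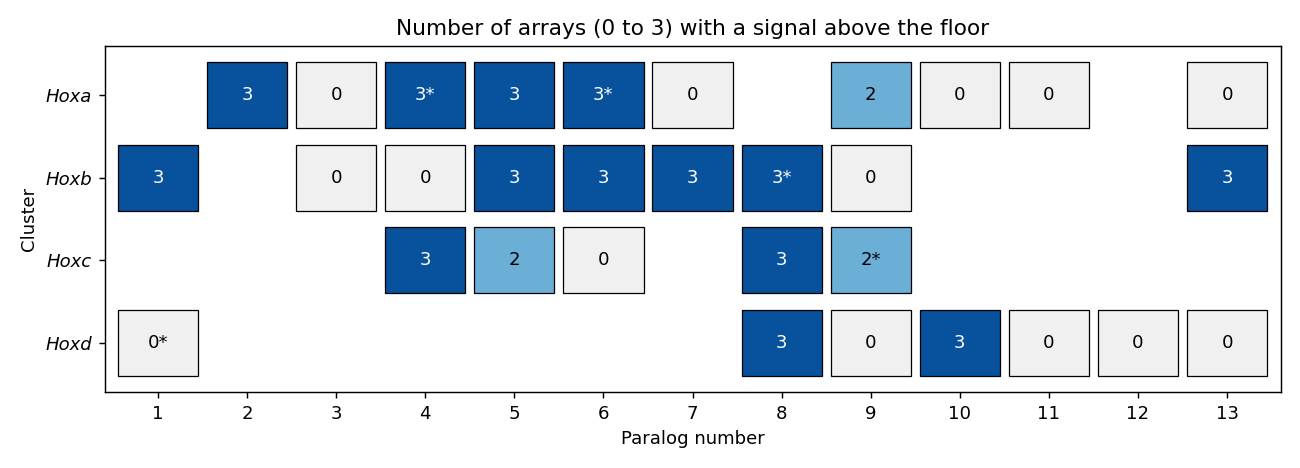
Number of arrays, 0 to 3, on which each Hox gene was above the floor, by cluster (rows) and paralog number (columns); an asterisk marks a relaxed or cross-hybridising probe set and blank places were not analysed. Dark squares gather at numbers 4 to 8, and 2 stand among the numbers 9 to 13, Hoxd10 and Hoxb13.

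The stretches just before the start of 3 genes are shown because they are a mid-cluster and an end-cluster gene of the same cluster on opposite sides of the floor (Hoxa5 and Hoxa13) and the gene with the largest difference in the lower direction between the tumour-bearing lungs (Hoxd10). They are 250 bases long, come from RefSeq on mouse build GRCm38.p6 and run 5′ to 3′ on the gene's strand, with each CpG dinucleotide in capitals. The Hoxa5 stretch is chr6:52204588-52204837 on the minus strand, the Hoxa13 stretch chr6:52260881-52261130 on the minus strand, and the Hoxd10 stretch chr2:74691641-74691890 on the plus strand. In the RefSeq annotation the Hoxa5 stretch overlaps the spans of Hoxa3 and of the noncoding gene Hoxaas3, and the Hoxa13 stretch overlaps no annotated gene. The Hoxd10 stretch overlaps the span of Hoxd10 itself, which has an earlier start as well.
Hoxa5: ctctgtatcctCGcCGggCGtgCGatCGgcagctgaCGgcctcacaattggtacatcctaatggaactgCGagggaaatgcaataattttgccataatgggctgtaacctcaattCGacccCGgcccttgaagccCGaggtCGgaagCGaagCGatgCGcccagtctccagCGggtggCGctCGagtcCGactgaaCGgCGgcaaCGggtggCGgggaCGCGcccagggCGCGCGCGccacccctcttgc
Hoxa13: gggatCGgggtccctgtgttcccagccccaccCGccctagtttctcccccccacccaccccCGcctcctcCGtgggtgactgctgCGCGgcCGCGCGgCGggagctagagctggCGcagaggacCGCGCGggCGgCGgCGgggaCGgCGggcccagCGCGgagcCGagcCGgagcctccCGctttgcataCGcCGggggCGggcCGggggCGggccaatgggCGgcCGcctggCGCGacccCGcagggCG
Hoxd10: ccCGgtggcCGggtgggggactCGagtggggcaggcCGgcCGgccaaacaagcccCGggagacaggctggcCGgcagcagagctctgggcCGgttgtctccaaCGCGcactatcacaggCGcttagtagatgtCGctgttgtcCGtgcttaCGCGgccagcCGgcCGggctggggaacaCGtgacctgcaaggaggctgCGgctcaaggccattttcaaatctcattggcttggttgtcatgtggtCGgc

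Hoxa5 had 28 CpG, Hoxa13 35 and Hoxd10 20 in these 250 bases. The table held such a stretch for 20 of the 31 genes, 22 stretches in all. The 8 genes above the floor on all 3 arrays had a median of 10 CpG (6 to 28), and the 13 stretches of the 11 genes below it on all 3 had a median of 14 (2 to 35). The 32851 stretches of all genes had a median of 6. CpG-rich starts were thus found on both sides of the floor. The motif AGGTCA, a half-site of nuclear receptors such as the retinoic acid receptors, was searched on both strands and was found before 3 of the 8 genes above the floor (Hoxc4, Hoxd8 and Hoxd10), in 1 of the 13 stretches below it (Hoxb4) and in 14% of all stretches. The motif TATAAA was found in 3 of the 22 Hox stretches (Hoxb8, Hoxa10 and Hoxd13) and in 12.4% of all. The composite Hox and Pbx motif TGATTNAT was found in 2 of the 22 (Hoxa2 and Hoxd11) and in 2.82% of all. These letter matches describe the sequences and are not evidence of binding.

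Among the mid-cluster genes, Hoxa5, the lung and trachea regulator, had signals of 217 in B16-bearing lung, 166 in LLC-bearing lung and 203 in control lung. The B16-bearing lung was 1.07-fold higher than control and the LLC-bearing lung 1.23-fold lower. Its paralog Hoxb5, which takes part in airway branching in the mouse, had 118 in B16-bearing lung, 46.1 in LLC-bearing lung and 43.1 in control lung. Only the B16-bearing lung stood high for this gene, 2.74-fold above the control lung (log2 difference 1.45), and the LLC-bearing lung was 1.07-fold above it. The LLC-bearing and control signals of Hoxb5 lie under the stricter floors of 71.3 (the 60th percentile) and 100, where its log2 difference from control has only a lower bound, at least 0.73 and at least 0.24, and is not counted as 2-fold. The third paralog, Hoxc5, had 37.9 in B16-bearing and 29.0 in LLC-bearing lung, while its control signal of 13.5 was below the floor. The B16-bearing lung was higher by at least 1.61-fold and the LLC-bearing lung by at least 1.23-fold.

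Of the genes numbered 6 to 8, Hoxb6, a gene of lateral plate mesoderm and limb, had signals of 148 in B16-bearing lung, 133 in LLC-bearing lung and 129 in control lung. Hoxb7 had 100.3 in B16-bearing, 105 in LLC-bearing and 111 in control lung. Hoxb7 had the smallest range of the 14 genes above the floor, with its highest signal 1.10 times its lowest. Hoxc8, known for motor neuron and thoracic skeletal patterning, had 137 in B16-bearing, 108 in LLC-bearing and 121 in control lung, so the control signal lay between the other two. Hoxd8 had 42.7 in B16-bearing, 66.3 in LLC-bearing and 48.4 in control lung. Its second probe set was negative on all 3 arrays.

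Hoxa4, Hoxa6 and Hoxb8 need a separate description because their probe sets disagreed. Affymetrix marks a probe set with _r_ when probe selection rules were relaxed, _f_ when it can bind a gene family, _s_ when it can bind several genes and _g_ when it shares a group of probes. The Hoxa4 probe set with the highest mean, of the _r_ kind, read 205 in B16-bearing lung, 121 in LLC-bearing lung and 164 in control lung. Another _r_ probe set of Hoxa4 read 119 in B16-bearing, 81.8 in LLC-bearing and 80.9 in control lung, while the other two lay below the floor on all 3 arrays, the unmarked one included. The B16-bearing lung was thus the highest on both Hoxa4 probe sets that had a signal, and the LLC-bearing lung was below control on one of them and not on the other.

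Hoxa6 read 136 in B16-bearing lung, 162 in LLC-bearing lung and 156 in control lung, on an _r_ probe set, and its _f_ probe set lay below the floor on all 3 arrays. Hoxb8, a gene also active in blood progenitors, read 187 in B16-bearing, 206 in LLC-bearing and 163 in control lung, on an _r_ probe set, and its _s_ probe set was negative on all 3. Without relaxed and cross-hybridising probe sets the count of Hox genes above the floor on all 3 arrays was 11 of 28. That count keeps Hoxa4 and Hoxd1 on their unmarked probe sets, unlike the counts by paralog number and by cluster. Which probe set reflects the RNA was not tested.

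**Figure D3:**
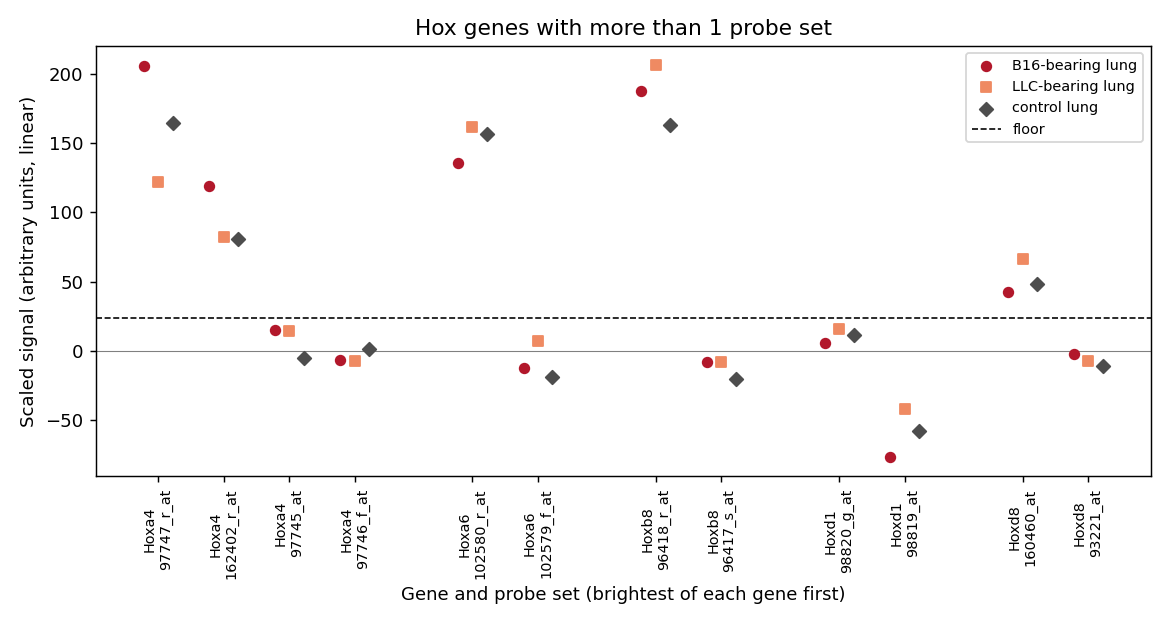
Scaled signal (linear, arbitrary units) of every probe set of the 5 Hox genes with more than 1, on the B16-bearing (circles), LLC-bearing (squares) and control (diamonds) array, with the floor of 23.6 dashed. For Hoxa4, Hoxa6, Hoxb8 and Hoxd8 at least 1 probe set lies above the floor and at least 1 other below it on all 3 arrays. The brighter Hoxd8 probe set is the closest of these to the floor, at 42.7, 66.3 and 48.4.

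Among the genes with low numbers, Hoxa2, which specifies hindbrain and pharyngeal arch identity, had signals of 92.7 in B16-bearing lung, 77.3 in LLC-bearing lung and 64.4 in control lung. Both tumour-bearing lungs were above the control lung, by 1.44-fold and 1.20-fold. Hoxb1, a hindbrain segment gene, had 57.8 in B16-bearing, 52.2 in LLC-bearing and 45.2 in control lung. Hoxc4 had 30.6 in B16-bearing, 39.9 in LLC-bearing and 33.3 in control lung, close to the floor on all 3 arrays. Hoxa3, Hoxb3, Hoxb4 and Hoxd1 were below the floor on all 3 arrays. The Hoxb4 signals were all negative, from −61.2 to −43.8.

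At the other end of the clusters, Hoxd10, a gene of lumbar motor neurons and limb, had signals of 27.2 in B16-bearing lung, 70.6 in LLC-bearing lung and 52.9 in control lung. The B16-bearing lung was low, just above the floor and 1.94-fold below the control lung (log2 difference −0.96), and the LLC-bearing lung was 1.33-fold above it. The annotation gives the probe sets of Hoxd10 and of its neighbour Hoxd9 the same sequence accession, yet Hoxd9 read −212 in B16-bearing, −321 in LLC-bearing and −264 in control lung. Hoxb13, a gene of the tail and prostate, had 37.8 in B16-bearing, 42.0 in LLC-bearing and 29.9 in control lung.

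Hoxa9, a regulator of blood progenitors, had 26.3 in B16-bearing and 30.5 in LLC-bearing lung, and its control signal of 22.9 was just below the floor. Hoxc9, on an _f_ probe set, had 30.0 in B16-bearing, 26.4 in LLC-bearing and 7.6 in control lung, the last below the floor. Hoxa10, Hoxa11, Hoxa13, Hoxb9, Hoxd9, Hoxd11, Hoxd12 and Hoxd13 were below the floor on all 3 arrays. Of all 31 members 8 had negative signals on all 3 arrays, and the values of such a probe set could be close to each other, as for Hoxd13 with −119 in B16-bearing, −117 in LLC-bearing and −113 in control lung.

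Against the control lung, 17 Hox genes were measured, meaning with a signal over the floor on 1 or both arrays. In the B16-bearing lung Hoxb5 was the 1 member past 2-fold on the higher side, and 0 were past it on the lower side. Of all 5970 genes measured in that comparison, 3.23% were past 2-fold on the higher side and 4.72% on the lower. Among the 1399 genes with a mean signal of 50 to 100, where Hoxb5 lies, the shares were 4.79% and 8.08%. With 17 genes, 1 past 2-fold is near this background. The median log2 difference of the 17 was 0.20, with 12 higher and 5 lower, and over all measured genes it was −0.01. Of all measured genes 49.3% were higher. Hoxa9, Hoxc5 and Hoxc9 had a signal under the floor only in control lung and so could only be higher. Over the 14 genes above the floor on all 3 arrays the median was 0.19, with 9 higher and 5 lower. Of all 5137 genes above the floor on all 3 arrays 50.2% were higher.

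In the LLC-bearing lung 0 of the 17 measured Hox genes were past 2-fold in either direction. The background was 3.95% higher and 2.98% lower of 6000 genes. The median log2 difference was 0.21, with 13 higher and 4 lower, against 0.00 over all measured genes, of which 49.9% were higher. Here too Hoxa9, Hoxc5 and Hoxc9 could only be higher. Over the 14 genes above the floor on all 3 arrays the median was 0.15, with 10 higher and 4 lower. Of all 5137 genes above the floor on all 3 arrays 49.6% were higher. The largest differences among the 14 Hox genes were those of Hoxb13 (0.49), Hoxd8 (0.45) and Hoxa4 (−0.44). With a floor at the 60th percentile the LLC-bearing median was −0.02, and with a floor of 100 it was −0.08, over the fewer genes then measured. Both comparisons use the same control array, so their directions are not independent.

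**Figure D4:**
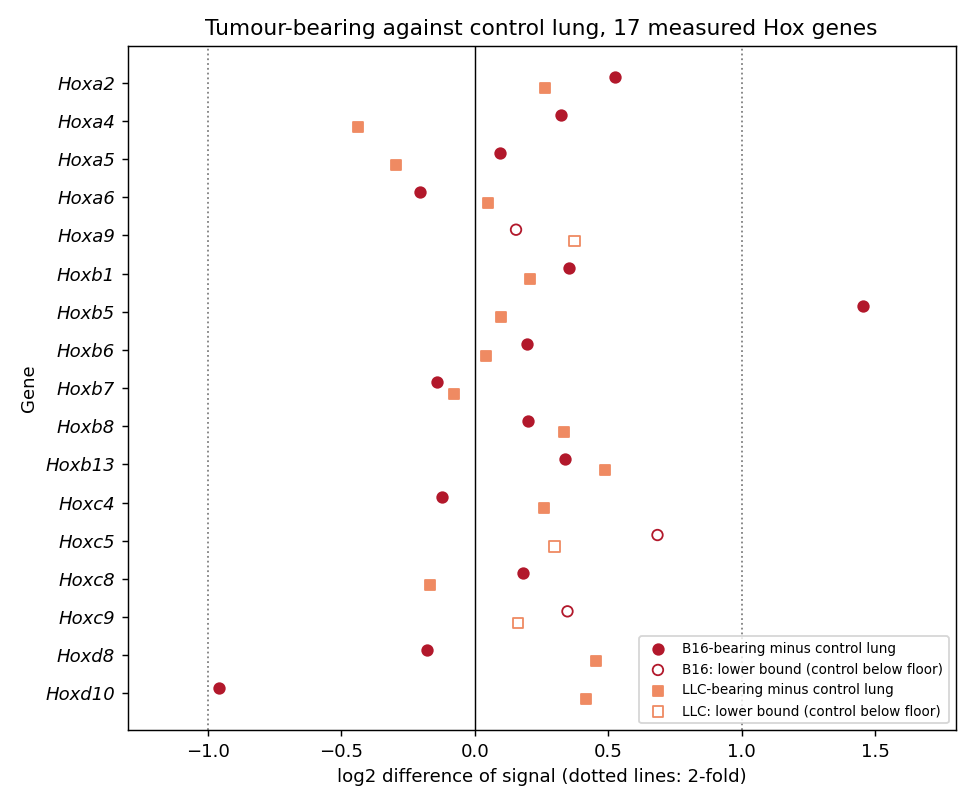
Log2 difference of signal of the B16-bearing (circles) and LLC-bearing (squares) lung minus the control lung for 17 Hox genes, with open symbols for lower bounds and dotted lines at 2-fold. Hoxb5 in the B16-bearing lung (1.45) is the 1 point outside the dotted lines, and Hoxd10 in the same lung (−0.96) lies just inside.

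The B16-bearing and LLC-bearing lungs were also set against each other, and here the control array had a part only in scaling, floor and choice of probe set. Hoxb5 was 2.56-fold higher in the B16-bearing lung (log2 difference 1.36) and Hoxd10 was 2.59-fold lower (−1.37). These were the 1 gene higher and the 1 gene lower by 2-fold or more among 17 measured. Of 5987 genes 3.41% were that much higher and 4.93% that much lower, and of the 1399 with a mean signal of 50 to 100, as both have, 5.86% and 7.08%. Hoxa4 was 1.69-fold higher and Hoxd8 1.55-fold lower in the B16-bearing lung. Over the 17 genes the median was 0.15, with 9 higher and 8 lower, against −0.02 over all measured genes, of which 47.7% were higher. Over the 14 genes above the floor on all 3 arrays it was 0.04, with 7 higher and 7 lower. Of all 5137 genes above the floor on all 3 arrays 48.7% were higher, and their median was −0.01.

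From array to array most Hox signals above the floor moved little, about as little as those of all genes above it. Over the 14 genes above the floor on all 3 arrays, the highest signal was a median of 1.31 times the lowest, and the ratio was under 1.5 for 10 of the 14 and over 2 for 2, Hoxb5 and Hoxd10. Over the 5137 genes above the floor on all 3 arrays the median ratio was 1.34, with 67.8% under 1.5 and 10.2% over 2.

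The partners of Hox proteins are homeodomain proteins of the TALE class, Pbx, Meis and Pknox, which bind DNA together with them. Of 9 such genes listed, 6 were named on the array and 4 were above the floor on all 3 arrays. The share over all 8251 genes was 62.3%. Pbx2 had signals of 111 in B16-bearing lung, 178 in LLC-bearing lung and 125 in control lung. Pbx3 had 98.5 in B16-bearing, 125 in LLC-bearing and 145 in control lung, so both tumour-bearing lungs were lower. Pknox1 had 145 in B16-bearing, 143 in LLC-bearing and 156 in control lung, and Meis3 had 47.8 in B16-bearing, 43.1 in LLC-bearing and 37.2 in control lung. Meis1 was above the floor in the control lung alone, at 36.7, which makes it at least 1.56-fold lower in both tumour-bearing lungs, and Meis2 was above it on no array. No measured difference or lower bound of a cofactor gene reached 2-fold in any of the 3 comparisons.

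Polycomb proteins keep Hox genes silent and trithorax proteins keep them active. Of 13 Polycomb genes on the array 11 were above the floor on all 3, where 62.3% of all 8251 genes were. The 1 at least 2-fold different from control was Cbx2, a chromatin-binding subunit, which had 35.7 in B16-bearing lung, 66.9 in LLC-bearing lung and 86.2 in control lung, 2.41-fold lower in the B16-bearing lung. Ezh2, the histone methyltransferase of the complex, had 42.8 in B16-bearing, 41.7 in LLC-bearing and 34.7 in control lung. Phc2, another Polycomb subunit, had 118 in B16-bearing, 46.4 in LLC-bearing and 78.1 in control lung, and was 2.55-fold higher in B16-bearing than in LLC-bearing lung. Of 5 trithorax genes, 2 were above the floor on all 3 arrays. Kdm6a, a histone demethylase, had 124 in B16-bearing, 60.8 in LLC-bearing and 76.8 in control lung, 2.04-fold higher in B16-bearing than in LLC-bearing lung. Kmt2a, the methyltransferase MLL, was close on the 3 arrays, with 169 in B16-bearing, 173 in LLC-bearing and 166 in control lung. Of all measured genes, 3.23% were 2-fold higher and 4.72% lower in B16-bearing against control lung. Against the LLC-bearing lung, 3.41% were 2-fold higher and 4.93% lower in the B16-bearing lung. The single genes past 2-fold are therefore not read as a result about these lists.

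Retinoic acid switches on Hox genes with low numbers in the embryo. Of 14 genes of its pathway 5 were above the floor on all 3 arrays and 9 on none, and 0 were 2-fold different from control in either tumour-bearing lung. Set beside this list and the next 2, 62.3% of all 8251 genes were above it on all 3 arrays and 25.5% on none. Rbp4, which encodes the plasma carrier of retinol, a protein made mainly in liver, was the 1 gene of the pathway 2-fold different between the tumour-bearing lungs, with 89.9 in B16-bearing, 198 in LLC-bearing and 104 in control lung. Of all measured genes 4.93% were 2-fold lower in B16-bearing than in LLC-bearing lung. Of the 7 ParaHox genes and cluster neighbours on the array (Cdx, Gsx, Pdx and Evx genes), 5 were above the floor on no array and 0 on all 3. The 1 at least 2-fold different from control was Gsx1, with 48.6 in B16-bearing and 27.7 in LLC-bearing lung. Its control signal was below the floor, so the B16-bearing lung was higher by at least 2.06-fold. In that comparison 3.23% of all measured genes were 2-fold higher. Of 14 other regulators of lung development 10 were above it on all 3. Foxa2, an epithelial factor, was the 1 of these at least 2-fold lower in both tumour-bearing lungs, at least 4.74-fold in each.

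The arrays carried the markers of lung, with all 5 listed epithelial genes on the array, all 6 endothelial genes and 10 of 11 mesenchymal genes above the floor on all 3. Of all genes 62.3% were above it on all 3. In the sums that follow negative signals count as 0. The summed signal of the 11 mesenchymal genes, the compartment in which lung Hox genes are best known, was 4186 in B16-bearing, 3813 in LLC-bearing and 3902 in control lung. The summed signal of 5 smooth muscle genes was 1653 in B16-bearing, 1057 in LLC-bearing and 1313 in control lung. Marker sums of other tissues also differed between the arrays. The 9 leukocyte genes summed to 2496 in B16-bearing, 4589 in LLC-bearing and 1433 in control lung. Most of the first sum came from the neutrophil genes S100a8 and S100a9, and the other 7 leukocyte genes summed to 406 in B16-bearing, 1095 in LLC-bearing and 644 in control lung, so that without this pair the B16-bearing lung was below control. Ptprc, the pan-leukocyte gene for CD45, was 5.47-fold lower in B16-bearing than in control lung. It read 24.98 in B16-bearing lung, just above the floor, and 136.7 in control lung. Of the 8 leukocyte genes measured in that comparison, 4 were higher and 4 lower, so Ptprc alone does not stand for the list. Of the 6 hepatocyte genes 1 was above the floor in B16-bearing, 5 in LLC-bearing and 0 in control lung, and the albumin gene Alb was above it in LLC-bearing lung alone, at 1327. The 5 cardiac muscle genes summed to 652 in B16-bearing, 608 in LLC-bearing and 1292 in control lung. Most of each sum came from Actc1, on an _f_ probe set, with 485 in B16-bearing, 505 in LLC-bearing and 670 in control lung. The other 4 were each at least 2-fold lower than control in both tumour-bearing lungs. Of 4 melanocyte genes on the array, 1 was above the floor on all 3, and they did not move together. This gene, Pmel, had 78.6 in B16-bearing, 40.7 in LLC-bearing and 85.9 in control lung, so the LLC-bearing lung was lowest. Dct was above the floor in the LLC-bearing lung alone, at 196. Tyr lay near the floor, with 26.2 in B16-bearing, 30.0 in LLC-bearing and 20.9 in control lung, and Tyrp1 was below it on all 3. The part of these markers in the Hox signals was not tested.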

How the data were processed

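Lung RNA was measured on 3 arrays, 1 per group. Per the labels' protocols, total RNA was isolated with TRIzol from frozen tissue and made into biotin-labelled cRNA. The deposited values are linear intensity values, 1 per probe set. Background had been subtracted, as the negative values show, and each column had a mean of 100.1 without its lowest and highest 2%; the labels do not state the software or the scaling. Of 12422 probe sets without the 66 manufacturer controls, 10833 had 1 symbol in GEO's platform annotation, 396 several and 1193 none. All 38 Hox probe sets matched RefSeq by gene ID. Arrays were multiplied by 1 factor each (0.987, 1.01 and 1 for B16-bearing, LLC-bearing and control), which set the median log2 ratio to control to 0 over the brighter probe sets. Signals under the floor (23.6) were raised to it on the log2 scale; a fold with a dimmer side below the floor is a lower bound. Analysis used Python 3.11.15, numpy 2.4.6 and pandas 2.3.3, tested on simulated data. Changes were planted there only in probe sets brighter than those of Hoxb5 and Hoxd10, so dim genes were not covered. The members and lists were chosen with earlier results of these data known. Genes named in full were Hox genes above the floor on all 3 arrays or 2-fold different in any comparison. Also named were cofactors above the floor on all 3 arrays and companion-list genes 2-fold different in 1 direction in both tumour-bearing lungs. Cell type markers were not part of this rule. Cbx2, Ezh2, Phc2, Kdm6a, Kmt2a, Rbp4, Gsx1, Meis1, Meis2, marker genes and further Hox genes were named after their values were seen. Arrays carry no read depth; their number limits the precision.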

Additional observations from a re-analysis of the deposited data

Results flagged for a closer look

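For the Hox genes below, the B16-bearing and LLC-bearing lungs lay on opposite sides of the control lung, which both comparisons share. With 1 array per group the difference was not tested, and nothing is read from how many genes did so. Hoxa4 had log2 differences of 0.32 in B16-bearing and −0.44 in LLC-bearing lung, Hoxa5 0.09 and −0.29, and Hoxc8 0.18 and −0.17. In the other direction, Hoxa6 had −0.21 in B16-bearing and 0.05 in LLC-bearing lung, Hoxc4 −0.12 and 0.26, Hoxd8 −0.18 and 0.45, and Hoxd10 −0.96 and 0.42. Of these, Hoxd10 in the B16-bearing lung had the largest difference, and its signal there lay just above the floor.

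One probe set annotated to more than 1 Hox gene, which no comparison used, read 206 in B16-bearing lung, 179 in LLC-bearing lung and 175 in control lung. The other two such probe sets were below the floor on all 3 arrays.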

How the results depend on the processing

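The results depended mainly on the floor. With a floor at the 60th percentile, a signal of 71.3, 7 Hox genes were above it on all 3 arrays and 22 on none, 0 were 2-fold higher in B16-bearing against control lung, and in B16-bearing against LLC-bearing lung 0 were 2-fold higher and 0 lower. The LLC-bearing and control signals of Hoxb5 lie under this floor, so its difference from each is then a lower bound, at least 0.73. The median was −0.017 in LLC-bearing against control lung and 0.26 in B16-bearing against LLC-bearing lung. With a floor at a signal of 100, 7 genes were above it on all 3 arrays and 23 on none, the counts of 2-fold differences were again 0, the Hoxb5 bound was at least 0.24 and the LLC-bearing median was −0.078. Hoxd10 lay under both these floors on every array and had no value. Array factors set by the overall median moved the median of all genes in the B16-bearing lung to 0.10, against −0.01, and the Hox medians to 0.31 in B16-bearing against control lung and 0.27 in B16-bearing against LLC-bearing lung. Values as deposited, quantile normalization, the mean of all probe sets and the removal of relaxed or cross-hybridising probe sets kept each median within 0.1 log2 units and each count within 1.5 times; the last 2 gave 13 and 11 genes above the floor on all 3 arrays. Leaving the LLC-bearing array out of both counts, an alternative added after seeing the data that can only raise them, left 14 and 14. No paired analysis was possible because each group had 1 array, and for the same reason no replicate could be left out. A signal near the floor, as for Hoxd10, Hoxc4 and Hoxb13, has the least support.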
